A study of Mus musculus with 8 samples.

Results

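AP-1 is a dimeric transcription factor built from Fos, Jun and ATF proteins, which join through a leucine zipper and bind DNA with the basic stretch beside it. Of the 8 listed genes (Fos, Fosb, Fosl1, Fosl2, Jun, Junb, Jund and Atf3), 7 had a probe set with a single gene symbol among the 22180 genes measured. Per symbol, the single-symbol probe set with the highest mean over the arrays was used. The probe set that carries the symbol Fosl1 is annotated to a second gene as well, so Fosl1 has no value here.

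Most of these genes are immediate early genes: growth factor, cytokine and stress signals switch them on through MAP kinases within minutes, and their RNAs are short-lived. Fos proteins cannot pair with each other and need a Jun partner, whereas Jun proteins also pair among themselves and with Atf3. In the kidney, AP-1 genes are known to respond to injury, and Atf3 is widely used as a stress gene.

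RNA came from glomeruli isolated from mice aged 13 weeks and was hybridised to Affymetrix arrays, 1 per sample, in 3 groups. Control mice (2 arrays) had the genotype label control and received doxycycline for 3 weeks from an age of 8 weeks. Mice labelled Tln1 Pod-rtTA TetO-Cre, here called Tln1 mice, received the same doxycycline course and then 2 weeks of vehicle (Tln1 vehicle, 3 arrays) or 2 weeks of valproic acid (Tln1 VPA, 3 arrays). By its name the line carries a doxycycline-driven Cre recombinase restricted to podocytes, the epithelial cells of the filtration barrier, and directed at Tln1, the gene of the integrin-binding protein talin 1. Other cells of the glomerulus are not targeted, and the whole isolate was measured. Valproic acid inhibits histone deacetylases. Whether control mice received vehicle, which alleles they carried, and whether each array stands for its own animal are not stated in the labels. The p values therefore measure the spread between these arrays, which may be technical.

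The arrays fell by correlation into 2 sets that cut across the groups, one of 5 arrays (the first set) and one of 3 (the second set). Control 2 and the third array of either Tln1 group made up the second set. Over genes, arrays correlated at 0.990 to 0.995 inside a set and at 0.966 to 0.979 between sets. Of 10 podocyte markers, 8 were measured, and their mean level was 7.30 to 8.04 in first-set and 8.69 to 9.33 in second-set arrays. All 9 proximal tubule markers were measured, at 11.69 to 12.07 and 10.67 to 11.10, so RNA of tubule cells was present in these glomerular isolates. Mean Y-linked signal (3 genes) was 3.57 in control 1, 4.85 to 7.0 in the first-set Tln1 arrays and 2.56 to 2.72 in the second set. What the sets stand for is not given by the labels. For this reason the changes below come with their values inside each set, and the plot of changes adds a fit with array set as a blocking term. Tln1 itself averaged 0.03 (SE 0.17) higher in Tln1 vehicle than in control, which checks no label, because podocytes are a part of the isolate and whether its probe set covers the deleted part is unknown here.

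The stretches upstream of 5 family members are shown because these genes were higher in Tln1 vehicle than in control arrays by more than 0.5 log2 units in both array sets, a size chosen after their values were seen. Sequences are from RefSeq on GRCm38.p6, where promoters of all 7 genes were matched. Each covers the 150 bases that end just before the transcription start, read in the direction of the gene. They lie at chr12:85473740-85473889 (plus strand) for Fos and, on the minus strand, at chr7:19310046-19310195 for Fosb, chr8:84978749-84978898 for Junb, chr1:191183334-191183483 for Atf3 and chr4:95052223-95052372 for Jun. Capitals mark the CRE half-site TGACG on either strand, the TATA box TATAAA and the element TGACATCA, which is known from the Jun promoter as a binding site of Jun and ATF proteins.
Fos: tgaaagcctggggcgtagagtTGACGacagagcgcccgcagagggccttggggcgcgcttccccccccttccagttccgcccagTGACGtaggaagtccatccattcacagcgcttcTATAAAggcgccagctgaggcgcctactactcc
Fosb: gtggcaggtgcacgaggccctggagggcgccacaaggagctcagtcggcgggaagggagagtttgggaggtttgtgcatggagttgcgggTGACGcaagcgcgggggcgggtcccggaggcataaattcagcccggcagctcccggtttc
Junb: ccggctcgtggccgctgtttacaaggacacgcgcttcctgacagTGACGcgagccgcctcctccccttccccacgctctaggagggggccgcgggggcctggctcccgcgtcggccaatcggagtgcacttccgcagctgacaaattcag
Atf3: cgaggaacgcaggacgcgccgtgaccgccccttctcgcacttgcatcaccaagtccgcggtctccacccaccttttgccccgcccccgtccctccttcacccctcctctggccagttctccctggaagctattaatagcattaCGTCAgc
Jun: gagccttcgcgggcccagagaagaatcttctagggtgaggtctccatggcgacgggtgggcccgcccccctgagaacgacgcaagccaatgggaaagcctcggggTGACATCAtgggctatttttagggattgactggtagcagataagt

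Over the 250 bases before the start, the half-site TGACG was found in 4 of the 7 promoters (Fos, Fosb, Junb and Atf3), beside 17.9% of all 27025 promoters of that length. Fos held it at -129 to -125 and at -66 to -62 relative to the start, Fosb at -60 to -56 and Junb at -106 to -102. Atf3 held it on the opposite strand at -7 to -3. TATAAA was found in Fos alone, at -33 to -28, beside 13.0% of all promoters, and TGACATCA in Jun alone, at -45 to -38, beside 3.02%. The consensus AP-1 site TGACTCA (4.43% of all promoters), the full CRE TGACGTCA (1.62%, which contains the half-site) and the CArG box bound by serum response factor (1.40%) had no match in the 7 windows. Both strands were searched, but bases further upstream were not, so sites beyond these windows would be missed. The matches describe letters in these windows and were not measured as binding.

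Among the Fos proteins, Fos had the widest range of the family. Fos stood at 4.94 and 7.21 in control 1 and 2, at 7.22, 6.97 and 8.94 in Tln1 vehicle 1 to 3, and at 5.79, 6.23 and 6.87 in Tln1 VPA 1 to 3, all as log2 RMA values, where 1 unit is a doubling of signal. The second-set array was the highest of its group in all 3 groups. Within the first set the control array lay lowest, both Tln1 VPA arrays above it and both Tln1 vehicle arrays highest, and within the second set Tln1 vehicle was again highest but Tln1 VPA lay just below control.

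Fosb, a close relative of Fos whose truncated splice form is known as a long-lived protein in neurons, stood at 5.22 and 5.88 in control, at 5.86, 5.93 and 7.20 in Tln1 vehicle and at 5.10, 5.24 and 5.27 in Tln1 VPA arrays. Its 3 Tln1 VPA values were the tightest group of the gene and lay below every Tln1 vehicle array. Fosl2, the Fos-related protein Fra-2, which lacks the strong activation domain of Fos, had another pattern: 7.03 and 7.39 in control, 7.10, 6.71 and 7.57 in Tln1 vehicle, and 7.41, 7.52 and 8.03 in Tln1 VPA arrays. All Tln1 VPA arrays lay above both control arrays, and Tln1 vehicle overlapped both other groups.

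Among the Jun proteins, Jun, the main partner of Fos, stood at 8.02 and 9.41 in control, at 9.06, 8.80 and 10.11 in Tln1 vehicle and at 8.60, 8.66 and 9.14 in Tln1 VPA arrays. As for Fos, the second-set array was the highest of each group, and the groups overlapped. Junb, which can oppose Jun at many of its targets, stood at 6.52 and 6.47 in control, at 6.97, 7.08 and 7.97 in Tln1 vehicle and at 6.86, 6.97 and 6.88 in Tln1 VPA arrays. Both control arrays lay below all 6 Tln1 arrays, and Tln1 vehicle 3 stood apart from the rest.

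Jund, the Jun protein with the most constant expression in many cell types, varied least, by 0.64 from lowest to highest. It stood at 8.77 and 8.60 in control, at 8.90, 8.86 and 8.85 in Tln1 vehicle and at 9.15, 9.05 and 8.51 in Tln1 VPA arrays. A second Jund probe set, lower in signal, lay between 5.82 and 6.35 and did not separate the groups. Atf3, a stress-induced partner of Jun that represses many promoters as a homodimer, stood at 5.94 and 6.22 in control, at 7.14, 6.06 and 7.17 in Tln1 vehicle and at 6.92, 6.38 and 6.86 in Tln1 VPA arrays. Tln1 vehicle 2 lay at control level, and the other 5 Tln1 arrays lay above both control arrays.

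**Figure D1:**
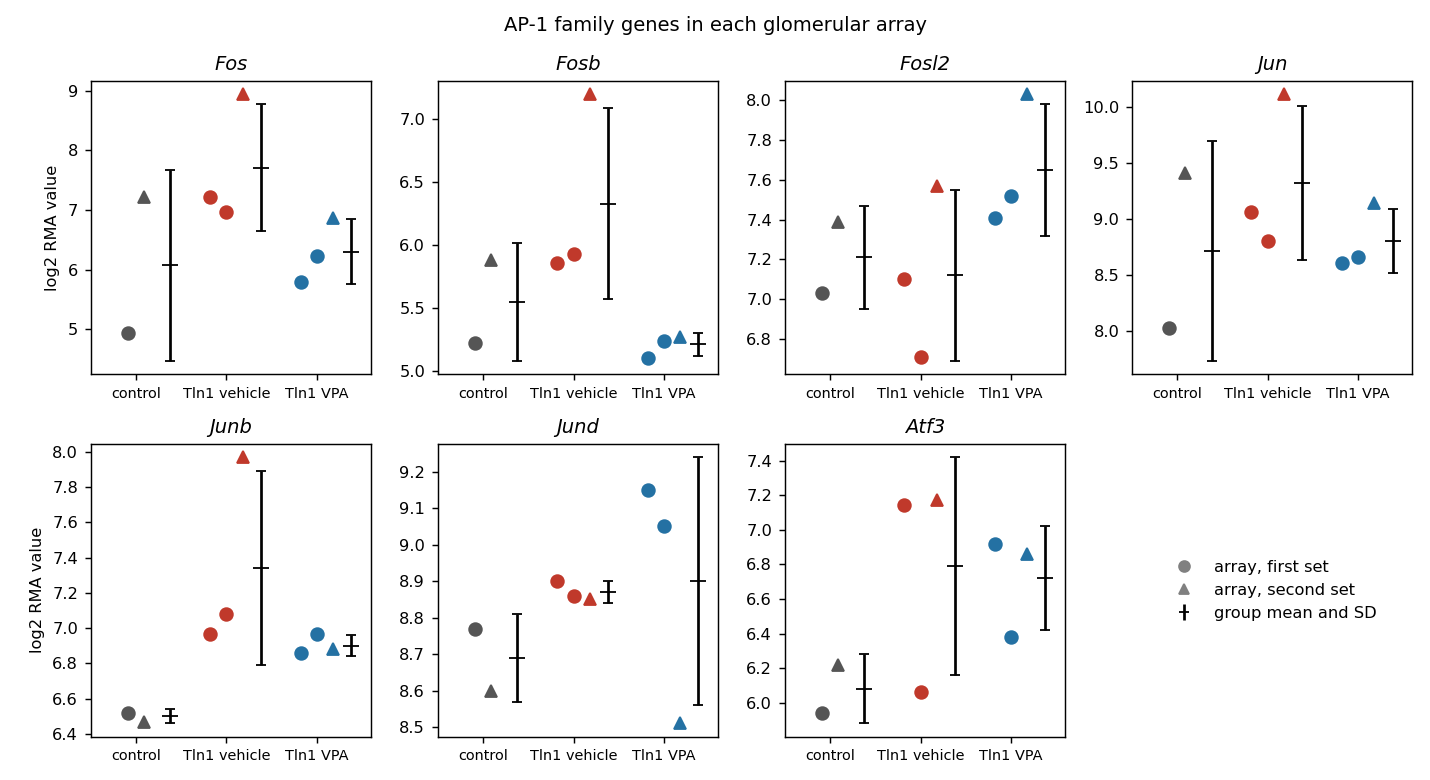
Log2 RMA value (vertical axis, a separate scale per gene) of each AP-1 gene in every array, by group, with circles for the first array set, triangles for the second and bars for the group mean and SD (n = 2, 3 and 3). Fosb in the Tln1 VPA arrays sits between 5.10 and 5.27, below all Tln1 vehicle arrays, and both Junb control arrays sit below all Tln1 arrays.

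The first comparison, Tln1 vehicle against control, addressed what differs in glomeruli when Tln1 is targeted in podocytes. Fos, Fosb, Jun, Junb and Atf3 were higher in Tln1 vehicle in both array sets by more than 0.5 log2 units, Jund by less, and Fosl2 had no settled direction. Thus 6 of 7 genes were higher in both sets, beside 20.8% of all genes. None of the 7 genes passed over all genes (limma, Benjamini-Hochberg adjusted p = 1.00 for each), nor did any other gene (0% of 22180 called), and 1.45% had an unadjusted p below 0.05. With 3 against 2 arrays an exact permutation test of a single gene cannot go below p = 0.2. Changes below are log2 differences of group means. Because the isolate mixes cell types, fewer cells of a type and less RNA per cell cannot be told apart.

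Fos averaged 6.07 ± 1.60 (SD, n = 2) in control and 7.71 ± 1.07 (n = 3) in Tln1 vehicle, a change of 1.64 (SE 0.78, 95% interval -0.18 to 3.45). It was 2.16 in first-set arrays and 1.73 in second-set arrays, and 1.90 (SE 0.31) with array set as a blocking term. Without control 1 it was 0.50 and without control 2 it was 2.77, and the 2 control arrays themselves differed by more than the groups did.

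Fosb went from 5.55 ± 0.47 to 6.33 ± 0.76, a change of 0.78 (SE 0.40), with 0.68 and 1.32 in the first and second set. Without Tln1 vehicle 3 the change was 0.34. Fosl2 averaged 7.21 ± 0.26 and 7.12 ± 0.43, and its change of -0.09 (SE 0.29, 95% interval -0.75 to 0.58) was -0.12 in first-set arrays, 0.18 in second-set arrays and 0.01 (SE 0.13) with the block, so its direction was not settled.

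Jun averaged 8.71 ± 0.98 in control and 9.32 ± 0.69 in Tln1 vehicle, a change of 0.61 (SE 0.49) that was 0.91 and 0.70 in the sets and 0.77 (SE 0.20) with the block. Its change was -0.09 without control 1 and 1.30 without control 2. Junb had the smallest p of the family with group as the only term (with the block, Fos had the smallest and Jun the next). It went from 6.50 ± 0.04 to 7.34 ± 0.55, a change of 0.84 (SE 0.28, unadjusted p = 0.0175, adjusted p = 1.00 in limma). Its groups did not overlap, and the change was 0.50 in first-set arrays, 1.5 in second-set arrays and 0.53 without Tln1 vehicle 3.

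Jund was also apart, at 8.69 ± 0.12 and 8.87 ± 0.03, but by 0.18 (SE 0.19, 95% interval -0.27 to 0.64). Atf3 averaged 6.08 ± 0.20 and 6.79 ± 0.63, a change of 0.71 (SE 0.35) with 0.65 and 0.95 in the sets, and 1.07 without Tln1 vehicle 2.

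Counted together, 2 of the 7 genes (Junb and Jund) were higher in every Tln1 vehicle array than in both control arrays, beside 4.78% of all genes. Both stayed apart with each array centred on its median, beside 3.44% of all genes. The gap of Jund was narrow, from 8.77 in control 1 to 8.85 in Tln1 vehicle 3. In its second probe set the groups overlapped, with a change of 0.04. All 7 genes lay above the median gene mean, whereas the shares here are over genes of every level. Of the 7, 5 (all but Fosl2 and Jund) were higher by more than 0.5 in both array sets, beside 0.338% of all genes. That size was chosen after the values were seen, so this count is a description and not a test. With array set as a blocking term, these 5 genes were higher at an unadjusted p below 0.05, beside 3.01% of all genes, and none passed over all genes (smallest adjusted p = 0.352, for Fos, in limma). The sets were found on these same arrays, so the block was not fixed by the design. The members were chosen with earlier results of these data known, and several rise and fall together across arrays. Counts of members beside shares of all genes, here and below, are therefore descriptions. The median change of the 7 genes was 0.71, against 0.02 over all genes.

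**Figure D2:**
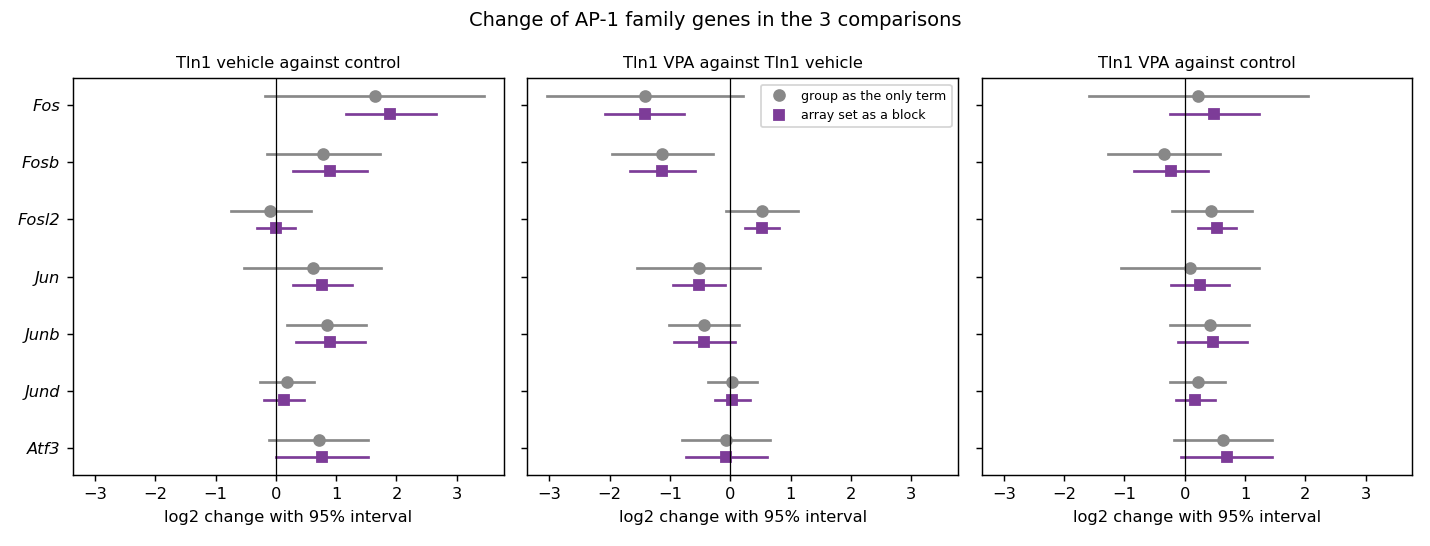
Log2 change of each AP-1 gene (horizontal axis) with its 95% interval in the 3 comparisons, from the fit with group as the only term (grey circles) and with array set as a blocking term (purple squares). For Tln1 vehicle against control the interval of Fos is -0.18 to 3.45 without the block and 1.16 to 2.65 with it, and Fosl2 stays around 0.

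Of the cell type marker lists given here, only the mesangial and smooth muscle means did not overlap between these groups. Mesangial and smooth muscle markers (7 of 8 measured) averaged 6.76 to 6.96 in control and 7.21 to 7.61 in Tln1 vehicle, and endothelial markers (8 of 8) 8.91 to 9.52 and 9.14 to 10.06. Podocyte markers (8 of 10) averaged 7.38 to 9.33 and 7.78 to 9.0, and macrophage markers (8 of 8) 5.20 to 5.28 and 4.83 to 5.54. Inside the first and second set the median change was 0.37 and 0.81 for mesangial and -0.11 and 1.21 for endothelial markers. For podocyte markers it was 0.48 and -0.27, and for macrophage markers -0.27 and 0.2. Tln1 vehicle 3, where 5 of the 7 AP-1 genes had their highest value of all arrays, also had the highest endothelial and mesangial means. The part of these markers and of the Y-linked signal in the AP-1 values was not tested.

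The second comparison, Tln1 VPA against Tln1 vehicle, addressed what valproic acid changed in Tln1 mice. It shares all Tln1 vehicle arrays with the first comparison, where they enter with opposite sign, so its values are not independent of that comparison. A high Tln1 vehicle array adds to a rise there and to a fall here. Without Tln1 vehicle 3 the change of Junb went from 0.84 to 0.53 in the first comparison and from -0.44 to -0.12 here. That of Fosb went from 0.78 to 0.34 and from -1.13 to -0.69. Fos and Fosb were lower in all 3 Tln1 VPA arrays than in any Tln1 vehicle array, Jun and Junb were lower in both array sets, and Fosl2 was higher in both. The 4 genes lower in both sets stand beside 20.4% of all genes. Atf3 and Jund had no settled direction. None of the 7 genes passed over all genes (limma, adjusted p = 1.00 for each), as for every other gene (0% of 22180), and 1.26% had an unadjusted p below 0.05.

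Fosb had the smallest p of the family in this comparison, with group means of 6.33 ± 0.76 and 5.21 ± 0.09 and a change of -1.13 (SE 0.36, 95% interval -1.96 to -0.29, unadjusted p = 0.0149, adjusted p = 1.00 in limma). The change was -0.72 in first-set arrays and -1.93 in second-set arrays, and -0.69 without Tln1 vehicle 3. Fos averaged 7.71 ± 1.07 and 6.30 ± 0.55, a change of -1.42 (SE 0.70, 95% interval -3.04 to 0.21), with -1.09 and -2.06 in the sets. Without Tln1 vehicle 3 the change of Fos was -0.80. Both genes were thus lower in each set, by more in the second set, whose Tln1 vehicle array was the highest of all.

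Jun differed by -0.52 (SE 0.44), with -0.30 and -0.97 in the sets and -0.13 without Tln1 vehicle 3. Junb differed by -0.44 (SE 0.25), with -0.11 and -1.09 in the sets and -0.12 without that array, so most of its difference lay in the second set.

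Arrays of the same number in both Tln1 groups deviated together from their group means. Number 3 is the second-set array in both groups, so the array sets alone can give this, and pairing was not shown. The fit with group as the only term does not use the numbers. From Tln1 vehicle to Tln1 VPA arrays of number 1, 2 and 3, Fos differed by -1.44, -0.74 and -2.06, and Fosb by -0.76, -0.69 and -1.93. Jun differed by -0.46, -0.13 and -0.97, and Junb by -0.11, -0.11 and -1.09. Fosl2 was higher in all 3 pairs, by 0.31, 0.82 and 0.46. Each of these 5 genes thus kept its direction in every pair, whereas Jund (0.25, 0.19 and -0.34) and Atf3 (-0.22, 0.32 and -0.31) did not. The share of all genes that keep their direction was not counted, so this only describes the values. With the number as a block, the 7 genes again had an adjusted p of 1.00 in limma.

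Fosl2 went the other way, from 7.12 ± 0.43 to 7.65 ± 0.33, a change of 0.53 (SE 0.26, 95% interval -0.07 to 1.13) that was 0.56 and 0.46 in the sets and 0.53 (SE 0.12) with the block. Without Tln1 vehicle 2 its change was 0.32. Whether the changes of Fosl2 and of Fos or Fosb differ from each other was not tested. Atf3 averaged 6.79 ± 0.63 and 6.72 ± 0.30, a change of -0.07 (SE 0.31, 95% interval -0.80 to 0.66), with 0.05 in first-set arrays and -0.31 in second-set arrays. The change of Jund was 0.03 (SE 0.17, 95% interval -0.37 to 0.44), with 0.22 and -0.34 in the sets.

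Fos and Fosb, 2 of the 7 genes, were lower in every Tln1 VPA array than in any Tln1 vehicle array, beside 1.57% of all genes. With each array centred on its median, 1 of the 7 genes, Fosb, was apart, beside 2.46% of all genes. After quantile normalisation Fosb alone was again apart, beside 2.29%. In the exact permutation test over arrays, on values as deposited, Fos and Fosb reached p = 0.1, the smallest that 3 against 3 arrays can give. Any gene with no overlap takes this value, so it adds nothing to the count. With array set as a blocking term, Fos, Fosb and Jun were lower at an unadjusted p below 0.05, beside 2.11% of all genes, and Fosl2 was higher, beside 3.32%. None passed over all genes (smallest adjusted p = 0.789 in limma, shared by Fos, Fosb and Fosl2). The median change of the 7 genes was -0.44, against 0.00 over all genes.

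Beside these values, endothelial markers averaged 9.14 to 10.06 in Tln1 vehicle and 9.03 to 9.23 in Tln1 VPA, and mesangial markers 7.21 to 7.61 and 7.13 to 7.23. Macrophage markers averaged 4.83 to 5.54 and 5.04 to 6.23, and podocyte markers 7.78 to 9.0 and 7.30 to 8.69. Their part in the AP-1 differences was not tested.

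The third comparison, Tln1 VPA against control, addressed which genes differed from control in Tln1 mice given valproic acid. It shares its arrays with both other comparisons, so its values are not independent of theirs. Those comparisons share the Tln1 vehicle arrays, so they are not independent of each other either. Atf3, Junb and Fosl2 were higher than in both control arrays in every Tln1 VPA array, whereas Fos, Fosb, Jun and Jund overlapped control. None passed over all genes (limma, adjusted p = 1.00 for each, 0% of 22180 called), and 1.87% of genes had an unadjusted p below 0.05, none of the 7 among them.

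Atf3 averaged 6.08 ± 0.20 in control and 6.72 ± 0.30 in Tln1 VPA, a change of 0.64 (SE 0.35) with 0.70 and 0.64 in the sets. Fosl2 was higher by 0.44 (SE 0.29), with 0.44 and 0.63 in the sets, and by 0.26 without Tln1 VPA 3. Junb was higher by 0.41 (SE 0.28), with 0.39 and 0.41 in the sets. These 3 of 7 genes, higher with no overlap, stand beside 5.57% of all genes. The gap of Fosl2 was narrow, from 7.39 in control 2 to 7.41 in Tln1 VPA 1. With each array centred on its median, or after quantile normalisation, Fosl2 overlapped control, which left Junb and Atf3 apart, beside 4.18% and 5.09% of all genes.

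For Fos the change was 0.22 (SE 0.78, 95% interval -1.59 to 2.04), with 1.07 in first-set arrays and -0.33 in second-set arrays, and it was -0.91 without control 1 and 1.36 without control 2. Jun had a like spread, at 0.09 (SE 0.49), with 0.61 and -0.27 in the sets, -0.60 without control 1 and 0.78 without control 2. Fosb differed by -0.35 (SE 0.40), with -0.05 and -0.61 in the sets, -0.68 without control 1 and -0.01 without control 2. Jund was at 0.22 (SE 0.19), with 0.33 and -0.09, and at 0.41 without Tln1 VPA 3 and 0.09 without Tln1 VPA 1. With the block, Fosl2 alone of the 7 was higher at an unadjusted p below 0.05 (0.53, SE 0.13, adjusted p = 0.361 in limma), beside 4.06% of all genes.

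Read across the 3 groups, Tln1 vehicle held the highest mean of Fos, Fosb, Jun and Junb in both array sets, 4 of 7 genes beside 7.74% of all genes. For Junb the first-set change from Tln1 vehicle to Tln1 VPA was only -0.11, and the second set has 1 array per group. Both changes of a gene rest on the same Tln1 vehicle arrays, so its rise over control and its fall with valproic acid are not independent. Tln1 VPA held the highest Fosl2 in both sets. For Atf3, both Tln1 groups lay above control in both sets and did not separate from each other.

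**Figure D3:**
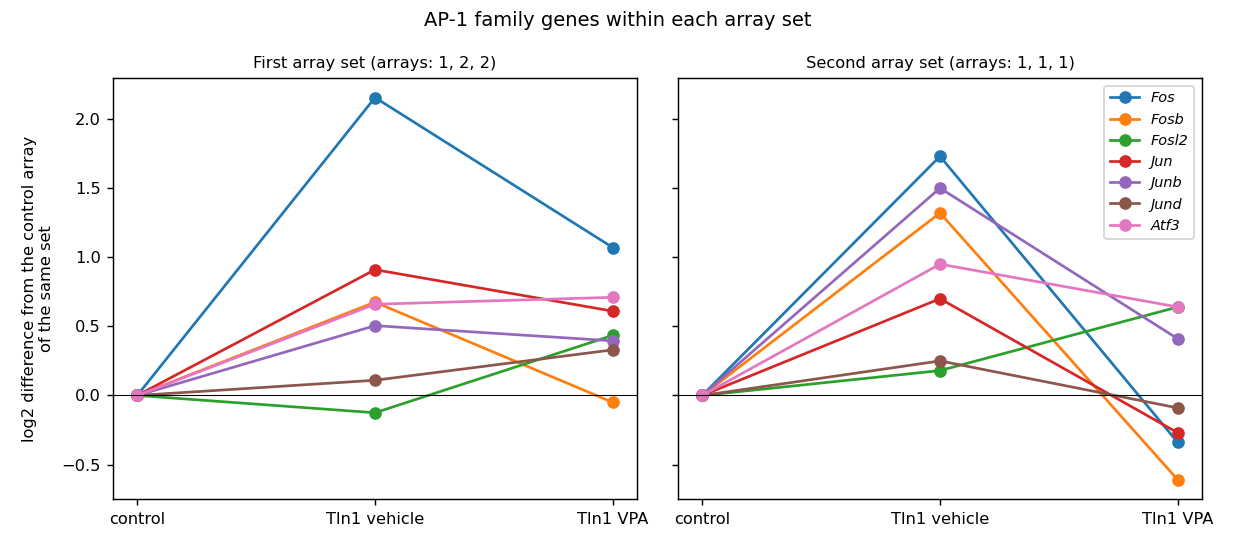
Log2 difference of each AP-1 gene from the control array of the same set (vertical axis) in the control, Tln1 vehicle and Tln1 VPA arrays, with group means per set and the number of arrays in each title. In both sets Fos, Fosb, Jun and Junb peak in Tln1 vehicle, and Fosl2 is highest in Tln1 VPA, at 0.44 and 0.63 above control. In the first set Junb differs by only -0.11 from Tln1 vehicle to Tln1 VPA.

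Across the 8 arrays Fos and Jun followed each other most closely (Pearson's r = 0.97, and 0.97 after the mean of each array set was taken away). Fos and Fosb had r = 0.90 (0.87 without set means), Fosb and Jun 0.84 (0.83), and Junb with Fos, Fosb and Jun 0.68 to 0.79 (0.78 to 0.80). Fosl2 followed them less closely, with r = 0.41 to Jun, 0.23 to Fos, 0.16 to Junb and -0.05 to Fosb. Without set means these were -0.21, -0.32, -0.01 and -0.56. Atf3 lay between, with r = 0.55 to Fos and 0.50 to Fosl2. Jund had r = -0.21 with Fos as deposited and 0.44 without set means. These values describe 8 arrays that share groups, sets and normalisation, and carry no test.

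**Figure D4:**
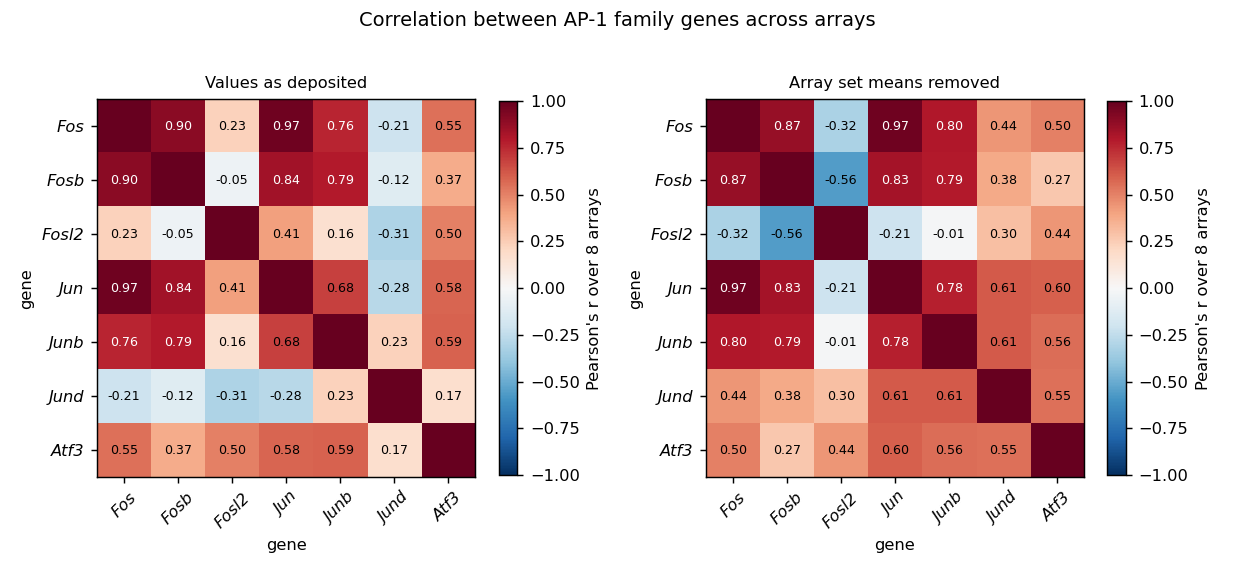
Pearson's r between each pair of AP-1 genes over the 8 arrays (colour, from -1 blue to 1 red), with values as deposited on the left and with the mean of each array set removed on the right. Fos, Fosb, Jun and Junb form a block with r of 0.68 or more in both panels, and Fosl2 with Fosb goes from -0.05 to -0.56.

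Among 11089 other genes with a mean above the median gene mean of 4.92, the 3 most like Fos over the 8 arrays were Jun (r = 0.967), Zfp36, an RNA-decay factor (0.962), and Olfr1396, an olfactory receptor gene by its symbol (0.958). With the set means removed they were Tob1 (0.993), Egr1 (0.986) and Rnf216 (0.980). For Fosb they were Sh2b3 (0.953), Nfib (0.934) and Ier2 (0.926), and without set means Gpn3 (0.980), Dop1b (0.974) and Fam120b (0.955). Likeness to Junb was greatest for Adamts16 (0.961), Hsd11b2 (0.954) and Lmo2 (0.943), or Prkab2 (0.988), Thbs1 (0.978) and Mpped2 (0.977) without set means. The genes most like Atf3 were Gm9222 (0.944), Pde7b (0.923) and Rell1 (0.898), and without set means Dnttip1 (0.969), Pde7b (0.951) and Gm9222 (0.949). These are the highest of many values over 8 arrays and carry no test, and the lists for Fos, Fosb and Junb shared no gene between the 2 versions.

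The lists of genes around AP-1 held no called gene in any comparison. Of 17 further bZIP relatives (ATF, BATF, JDP and MAF genes), 15 were measured, 0 passed over all genes and 0 had an unadjusted p below 0.05 in any comparison. Their median change was 0.04 in Tln1 vehicle against control and 0.08 in Tln1 VPA against Tln1 vehicle. The smallest p in the first comparison belonged to Creb5, a CREB-family factor, which stood at 5.51 and 5.36 in the control arrays, above 5.24, 5.15 and 5.16 in those of Tln1 vehicle (change -0.25, SE 0.13).

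Of 24 genes of the MAP kinase cascades that switch AP-1 on, 20 were measured and 0 passed over all genes. Their median change was 0.04, 0.02 and 0.05 in the 3 comparisons. Map3k8, the kinase Tpl2 that feeds the ERK branch, stood at 4.86 and 4.98 in control, 5.15, 5.11 and 5.06 in Tln1 vehicle and 5.19, 5.48 and 5.31 in Tln1 VPA arrays. Its 3 groups did not overlap, with changes of 0.19 (SE 0.13), 0.22 (SE 0.11) and, against control, 0.41 (SE 0.13). Inside the sets these were 0.27 and 0.08, 0.2 and 0.25, and 0.47 and 0.33. Genes higher with no overlap made up 4.78%, 1.98% and 5.57% of all genes in the 3 comparisons. Map3k1, which feeds the JNK branch, was higher in Tln1 VPA than in Tln1 vehicle by 0.37 (SE 0.18), with 0.53 and 0.06 in the sets, and higher than in control by 0.49 (SE 0.20).

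All 14 listed serum response, ternary complex and CREB factors were measured, and 0 passed over all genes or had an unadjusted p below 0.05. Elk3, a ternary complex factor that can repress Fos, was at 0.34 (SE 0.22) in Tln1 vehicle against control and at -0.42 (SE 0.19) in Tln1 VPA against Tln1 vehicle, with -0.23 and -0.79 in the sets.

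Of 21 genes described elsewhere as AP-1 targets, 19 were measured and 0 passed over all genes. Their directions were mixed: 13 were higher and 6 lower in Tln1 vehicle than in control, 12 higher and 7 lower in Tln1 VPA than in Tln1 vehicle, and their median changes were 0.06 and 0.06. Tnfrsf12a, the receptor for the cytokine TWEAK, stood at 5.79 and 6.12 in control, 6.52, 6.10 and 6.51 in Tln1 vehicle and 7.79, 7.23 and 7.12 in Tln1 VPA arrays. It was thus highest in Tln1 VPA (change from Tln1 vehicle 1.01, SE 0.21, unadjusted p = 0.00176, adjusted p = 1.00 in limma). Whether it follows any AP-1 gene was not tested. Timp1, an inhibitor of matrix metalloproteases, was low in signal and higher in Tln1 VPA than in Tln1 vehicle by 0.34 (SE 0.14) and than in control by 0.53 (SE 0.15).

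Among 22 other immediate early genes, all measured, 0 passed over all genes. Egr1, Zfp36 and Gadd45b had the smallest p in Tln1 vehicle against control, with changes of 1.81 (SE 0.23), 0.47 (SE 0.21) and 0.89 (SE 0.36). Egr1 and Zfp36 were lower in Tln1 VPA than in Tln1 vehicle (-1.14, SE 0.20, and -0.39, SE 0.19), while Dusp6, a phosphatase that restrains ERK, was higher (0.67, SE 0.27).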

How the data were processed

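Total RNA of 8 glomerular isolates was turned into biotinylated cRNA for Affymetrix arrays, per the labels' protocols. The authors deposited log2 expression values per probe set; RMA and limma are named in the submitters' processing notes, without versions, and no annotation or genome build is given in the sources used here. Values of the 41345 probe sets per array ran from 1.49 to 13.9 without centring by gene, so that more RNA gives a higher value. Scanner values were not used here, so which arrays were normalised together stays unknown. In the platform annotation, 23521 probe sets had 1 symbol, 1814 several and 16010 none. Entrez identifiers matched 23328 of them to RefSeq and changed 0 symbols. Keeping the probe set with the highest mean per symbol left 22180 genes.

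A single two-sided fit with group as its term (limma's lmFit and eBayes) over all 8 arrays gave the 3 comparisons, with Benjamini-Hochberg adjustment over all genes at 0.05, in R 4.3.3 with limma 3.58.1. The fit was tested on simulated data with independent noise and no array sets, so that test does not cover the effect of the sets. Array sets came from average-linkage clustering on 1 minus the correlation across genes. The lists beside the family held 148 entries, of which 136 were measured. At most 3 genes per list and comparison are named, those with the smallest p, and genes like a member by the highest correlation. The members and lists were chosen with earlier results of these data known. Deviations from the group mean correlated between Tln1 vehicle and Tln1 VPA arrays of the same number (r = 0.570, 0.609 and 0.787). Number 3 is the second-set array in both groups, so the array sets alone can give such values. Arrays of different numbers were not compared. Number 2 is a second-set array in control and a first-set array in both Tln1 groups. Its r to control was -0.591 for Tln1 vehicle and -0.496 for Tln1 VPA. The check therefore cannot tell pairing from array set, and the labels state no pairing. The fit used for the printed errors and p values leaves the numbers out. The fit with the number as a block is an alternative, and control shares only 2 numbers with each Tln1 group. Few arrays limit the precision of every value. Figures used matplotlib 3.10.9 in Python 3.11.15.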

Additional observations from a re-analysis of the deposited data

How the results depend on the processing

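No AP-1 gene was called in any comparison under any alternative that was run. With a replicate block, 4 genes were called in Tln1 vehicle against control and 1 in Tln1 VPA against control, none of them an AP-1 gene, and 0 in Tln1 VPA against Tln1 vehicle, where the block changed no call. All other alternatives gave 0 called genes in each comparison. The number of genes whose groups do not overlap, 1857, 788 and 2119 in the 3 comparisons, was 889, 433 and 1216 among genes above the median level, where fewer genes were counted, and 15009, 7590 and 14713 in the first array set alone, where fewer arrays had to be apart. Leaving out 1 array gave 2814 to 9761, 1624 to 4495 and 3179 to 10108. Signs turned for these changes. In Tln1 vehicle against control, Fosl2 was at 0.01 with array set as a blocking term and at up to 0.12 without 1 array (lowest -0.31), and Jun at -0.09 without control 1 (highest 1.30). In Tln1 VPA against Tln1 vehicle, Jund was at -0.04 with the mean of its probe sets and at -0.09 to 0.23 without 1 array, and Atf3 at 0.05 in the first set alone and at -0.44 to 0.12 without 1 array. In Tln1 VPA against control, Fos was at -0.23 with the replicate block and at -0.91 to 1.36 without 1 array. Jun there was at -0.19 with the replicate block, -0.04 with array weights and -0.60 to 0.78 without 1 array. The cause of these turns was not tested. The second array set has 1 array per group, so its values carry no test. The first set holds control 1 as its only control array, so its changes against control rest on that array.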
